A study of Mus musculus with 4 samples.

Results

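The 68 nuclear-encoded subunits of the oxidative phosphorylation complexes, together with 6 further genes that carry the same names, were followed in mouse embryonic stem (ES) cells after knockdown of Esrrb, of Sox2, or of both. Genes were taken by symbol (Ndufa, Ndufb, Ndufc, Ndufs and Ndufv, Sdh with a letter a to d, Uqcr, Cox4 to Cox8, and Atp5). A gene entered when at least 1 of its probes had a detection score above 0.99 on all 4 arrays of at least 1 group, and its brightest such probe stood for it. The name rule took 85 genes, of which 74 passed out of 8248 genes that passed in all. The 74 members comprised 30 subunits of complex I, 3 of complex II, 6 of complex III, 14 of complex IV and 15 of complex V, with 4 complex I assembly factors (Ndufaf1, Ndufaf4, Ndufaf5 and Ndufaf7), the pseudogene Ndufs5-ps and Cox7a2l. Ndufa4 was grouped with complex I by its name, although it is known to associate with complex IV. Of the 74 members, 72 were detected on all 16 arrays, so for these the filter did not depend on any group. The exceptions were Atp5e and Cox4i2. For the other 11 genes (Ndufaf3, Ndufab1, Ndufb4, Ndufb11, Ndufs1, Uqcrfs1, Uqcrq, Cox6a2, Cox7b2, Cox8b and Atp5k) no probe passed, and they are not described further.

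Oxidative phosphorylation takes place in the inner mitochondrial membrane. Complex I (NADH dehydrogenase) and complex II (succinate dehydrogenase) feed electrons to coenzyme Q, complex III passes them to cytochrome c, complex IV (cytochrome c oxidase) hands them to oxygen, and complex V (ATP synthase) uses the resulting proton gradient to make ATP. Complexes I, III, IV and V also hold subunits encoded by mitochondrial DNA, none of which was among the genes measured here. Naive mouse ES cells respire as well as ferment glucose, and the estrogen-related receptors, the family of Esrrb, are known in other tissues as regulators of respiratory genes.

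The cells, labelled E14, were transfected by lipofection with short hairpin RNAs against Esrrb, against Sox2 or against both at once (dual), and with one against GFP as the control. Cells of all 4 groups, controls included, were selected with puromycin for 2 days. Total RNA was labelled with biotin and hybridised to 1-colour Illumina bead arrays, with 4 arrays per group lettered A to D. Nothing in the labels says that the 4 arrays came from separate transfections, so p-values reflect array-to-array spread, possibly technical only.

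Between 11286 and 13322 of 25697 probes were detected per array, and 72 to 74 of the member probes. The A and B arrays lay apart from the C and D arrays in every group. Esrrb, the orphan nuclear receptor targeted here, averaged 12841 ± 546 (SD, n = 4) in deposited intensity in the GFP group, 2691 ± 77.5 with its own, 4804 ± 176 with the Sox2 hairpin and 3253 ± 143 with both. Sox2, the HMG-box factor, averaged 795 ± 59.5, 495 ± 50.9, 513 ± 43.3 and 371 ± 22.8 in the order GFP, Esrrb, Sox2 and dual. Each single hairpin thus lowered both transcripts, and the contrasts do not separate loss of one from loss of the other. The summed intensity of 8 ES cell markers was 17939 to 20346 with GFP, 12086 to 14078 with Esrrb, 7591 to 8281 with Sox2 and 5840 to 8373 with both hairpins. The sum of 11 trophectoderm markers was 8745 to 9729, 8149 to 8900, 19247 to 23511 and 19746 to 26328, with Hand1 undetected on all GFP arrays and Eomes on all Esrrb and all Sox2 arrays. The sum of 8 fibroblast markers lay between 2449 and 3061 in all groups, with Col3a1 and Postn undetected throughout. The mean of each of the 8 ES cell markers was lower in the Sox2 and dual groups than with GFP. The higher trophectoderm sums came mainly from the keratins Krt8 (2845 with GFP, 10480 with Sox2 and 11801 with both) and Krt18 (956, 5472 and 5918), and Gata2, Gata3, Plac1 and Hand1 were higher too. By deposited intensity, not normalized, Tfap2c (4562, 3707 and 3864), Elf5 and Eomes were lower in both groups. Cdx2 (300.2, 231 and 335) and Tfap2a were lower with Sox2 alone. Elf5 was detected on only 8 of the 16 arrays and Eomes on 3. After normalization, 0 of the 9 trophectoderm markers that passed the filter were called lower with Sox2 or with both, and 6 were called higher in each. Of all genes, 21.5% and 22.3% were called lower, and 21.7% and 22.1% higher. The part of these markers in the results below was not tested. In such bulk RNA a lower signal from fewer cells of a type and one from less RNA per cell cannot be told apart.

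With both hairpins, 34 of 74 members were lower than with GFP and 3 were higher, against 22.3% and 22.1% of all genes. With the Sox2 hairpin alone 12 were lower and 6 higher, against 21.5% and 21.7%, and with the Esrrb hairpin alone 4 were lower and 1 higher, against 5.76% and 5.86%. Calls are from a limma fit to all 16 arrays, with the Benjamini-Hochberg adjusted p below 0.05 among 8248 genes. The 3 comparisons share the GFP arrays, so their counts are not independent. The members had a median log2 difference of -0.02 (Esrrb), -0.02 (Sox2) and -0.18 (dual), beside medians over all genes of 0.00, 0.00 and -0.01. In the dual knockdown 61 of the 74 members were below GFP, or 82.4%, compared with 51.2% of all genes.

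**Figure D1:**
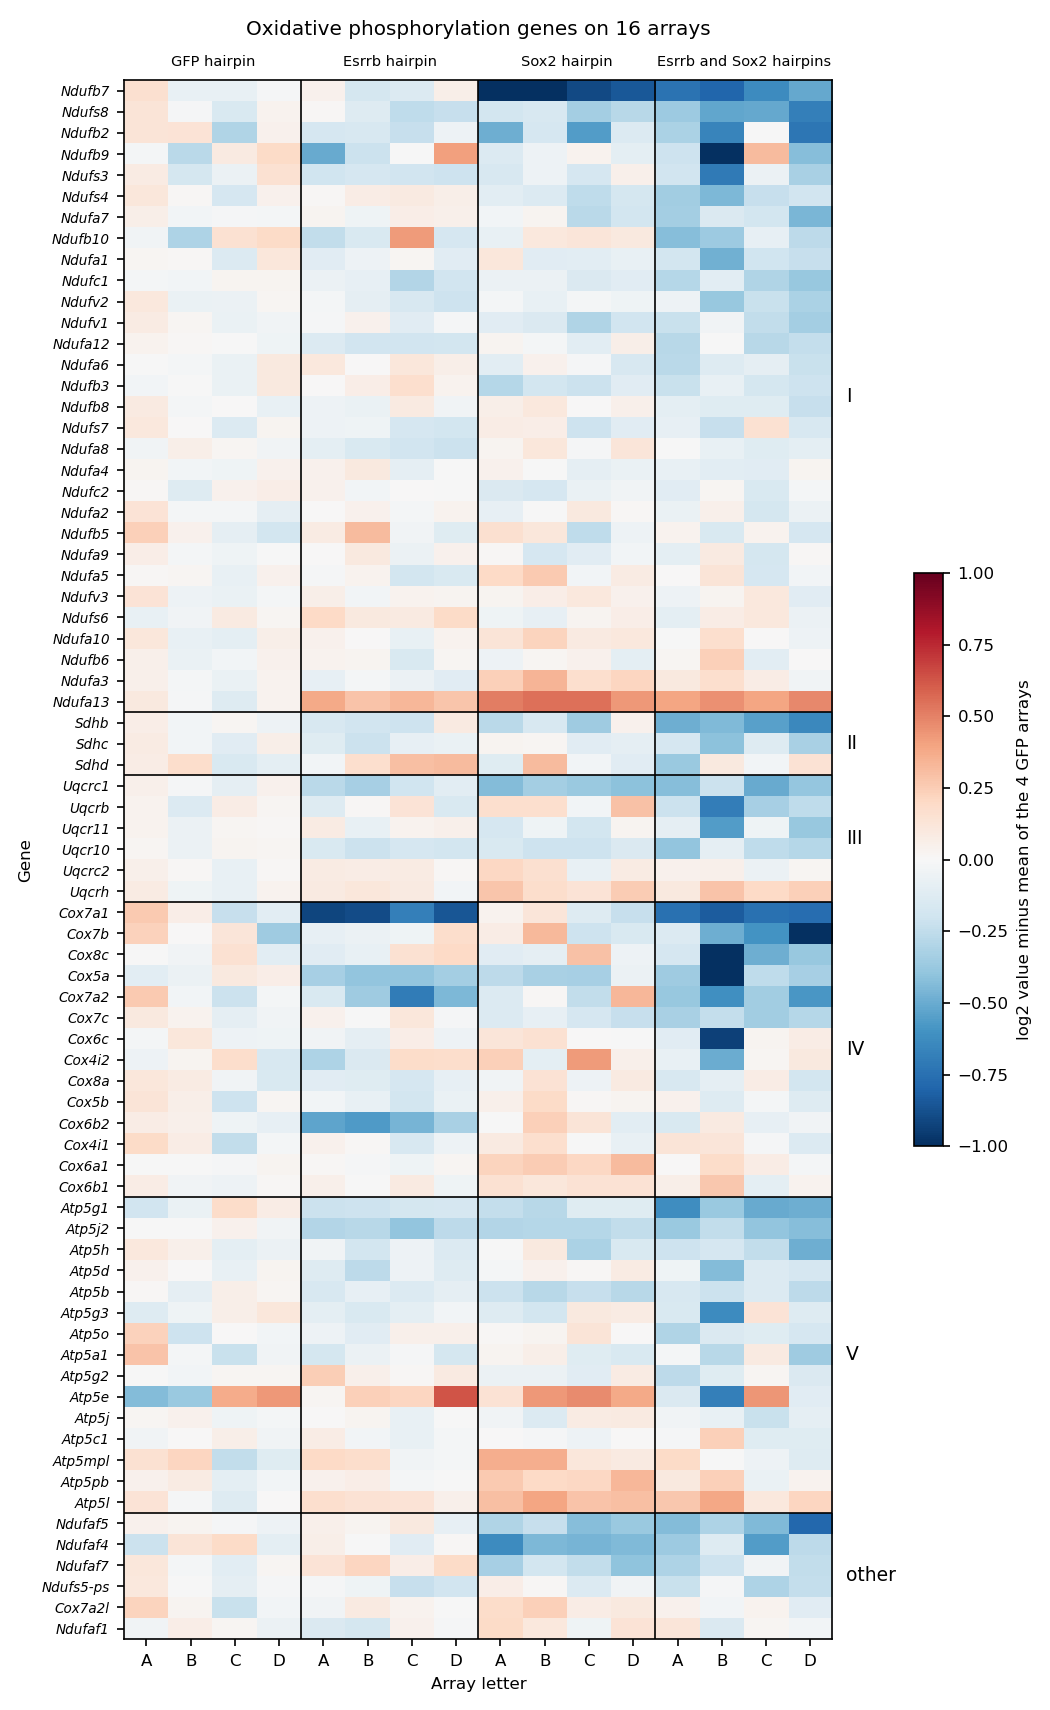
Log2 value of each member (rows, grouped by complex and sorted by the dual difference) on each of the 16 arrays (columns, lettered within the hairpin groups), relative to the mean of the 4 GFP arrays; blue is lower, red is higher, and the colour scale ends at a log2 difference of 1 either way. The dual columns are mostly pale blue, dual array B holds several darker cells, and Ndufb7, Cox7a1 and Ndufa13 stand out in their own groups.

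The shifts were small. Only 2 called members differed by 1.5-fold or more in the dual knockdown, 1 in the Esrrb and 1 in the Sox2 knockdown, whereas 14.8%, 2.99% and 13.4% of all genes were called at that size. The median standard error of a member's log2 difference was 0.08. Per array, the median of the 74 members relative to the mean of the GFP arrays was -0.15, -0.14, -0.12 and -0.18 on dual arrays A to D. It lay between -0.05 and 0.05 on the GFP arrays, between -0.05 and -0.02 on the Esrrb arrays and between -0.06 and 0.02 on the Sox2 arrays. The 4 dual arrays therefore lay below all other arrays in this median.

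Array B of the dual group and the scaling touch these counts. Dual array B stood apart from the other arrays of its group, with a root mean square distance of 0.31 on the log2 scale over all genes, compared with 0.19 to 0.26 for the other 15 arrays. Without it 32 members were called, 29 of them lower, where 42.9% of all genes were called and 21.6% were lower. All 29 were among the 34, and the median moved to -0.12. Changes are given after quantile normalization, and the count depended on the scaling: when the log2 values were multiplied to a common median, which raised the median SD between arrays of a group from 0.15 to 0.35, 0 members were called in the dual knockdown (4 at an unadjusted p under 0.05), with a median of -0.12. Calls over all genes fell too under that scaling, to 8.98% called and 3.30% lower. With no normalization between arrays 52 were lower and 1 higher, where 48.0% of all genes were called and 33.6% were lower, and the median of all genes itself moved to -0.14. In the dual knockdown the median of each of the 5 complexes was below that of all genes under these scalings and with array medians subtracted. This did not hold for the single knockdowns, where complex IV lay above all genes with Sox2.

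The members are mostly strong signals, with 46 of the 74 among the 825 brightest genes. There the median dual difference was -0.08 for the members and -0.03 for all 825 genes, and 17 of 46 members were lower and 3 higher, against 23.6% and 22.3%. Of the 28 dimmer members, 17 were lower and 0 higher, with a median of -0.28. Among all 8248 genes, bright and dim, 22.3% were lower and 22.1% higher, with a median of -0.01. The genes below the brightest 825 were not summarized apart, so the dimmer members have no share of like brightness beside them. By median the dimmer members lay further below GFP than the brighter ones, which was not tested.

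The dual medians by complex were -0.15 for complex I, -0.26 for complex II, -0.26 for complex III, -0.17 for complex IV and -0.14 for complex V. Called members numbered 13 lower and 1 higher of 30 in complex I, 2 and 0 of 3 in complex II, 4 and 1 of 6 in complex III, 6 and 0 of 14 in complex IV, and 5 and 1 of 15 in complex V. Among all genes 22.3% were lower and 22.1% higher. Without dual array B the medians were -0.13, -0.21, -0.22, -0.09 and -0.12 in the same order, with 11, 2, 3, 6 and 4 lower, beside 21.6% of all genes. The order of the complexes was not tested, and complexes II and III rest on few genes. With the Esrrb hairpin the medians of the 5 complexes lay between -0.12 and 0.00, and with the Sox2 hairpin between -0.04 and 0.04.

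**Figure D2:**
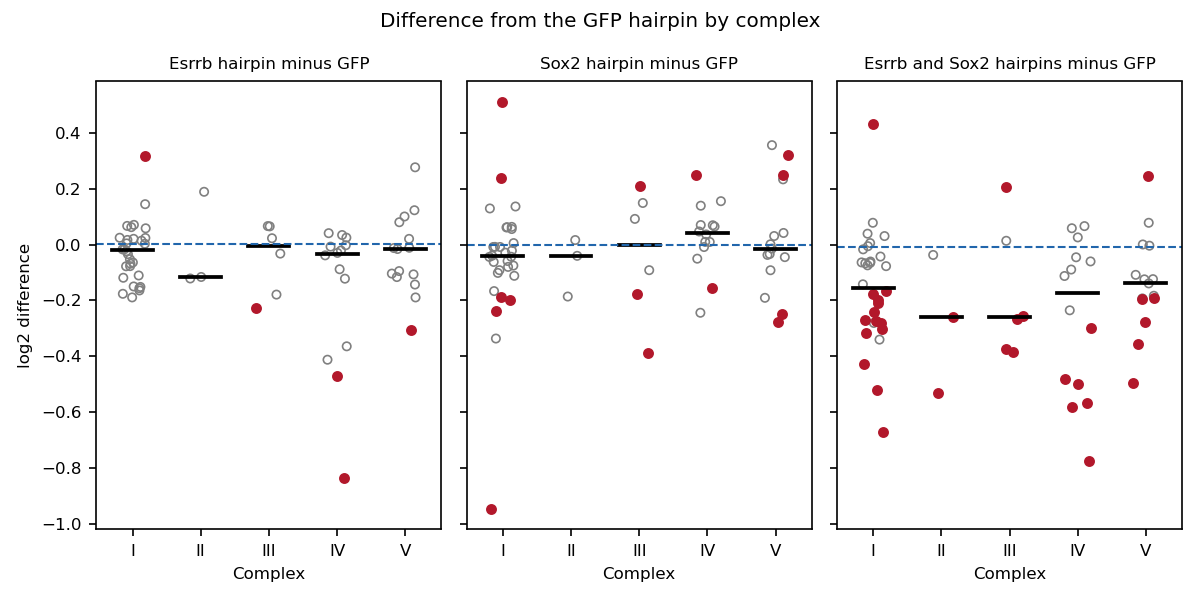
Log2 difference from GFP (y axis) of each of the 68 subunits, by complex (x axis), for the 3 knockdowns; filled red points passed an adjusted p under 0.05, open points did not, black bars are medians of the complex and the dashed line is the median of all genes. In the dual panel the 5 medians lie between -0.26 and -0.14, and in the other panels between -0.12 and 0.04.

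The promoters of the 2 called members that fell most and the 2 that rose most in the dual knockdown are shown, because the hairpins target transcription factors. Each window runs from 250 bases before to 50 after the start given by RefSeq for GRCm38.p6, 5′ to 3′ on the strand of the gene. Capitals mark any of 4 motifs on either strand: the extended estrogen-related receptor motif TCAAGGTCA, the nuclear receptor motif AAGGTCA that it contains, the core CGCATGCG of the NRF1 site, and the ETS motif CCGGAAG. Cox7a1 lies at chr7:30183921-30184220 on the plus strand, Ndufb7 at chr8:83566508-83566807 on the plus strand, Ndufa13 at chr8:69901971-69902270 on the minus strand and Atp5l at chr9:44920693-44920992 on the minus strand.
Cox7a1: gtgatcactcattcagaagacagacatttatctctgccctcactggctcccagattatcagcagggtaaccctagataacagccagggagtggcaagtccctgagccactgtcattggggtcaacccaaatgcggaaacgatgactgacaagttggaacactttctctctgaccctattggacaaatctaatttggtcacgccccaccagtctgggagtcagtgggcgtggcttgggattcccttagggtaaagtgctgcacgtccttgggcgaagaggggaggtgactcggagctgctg
Ndufb7: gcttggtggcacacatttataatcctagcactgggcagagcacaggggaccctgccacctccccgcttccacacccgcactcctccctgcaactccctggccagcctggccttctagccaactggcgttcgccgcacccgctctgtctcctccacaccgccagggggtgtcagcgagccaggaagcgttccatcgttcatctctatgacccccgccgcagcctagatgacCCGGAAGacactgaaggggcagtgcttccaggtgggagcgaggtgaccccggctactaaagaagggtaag
Ndufa13: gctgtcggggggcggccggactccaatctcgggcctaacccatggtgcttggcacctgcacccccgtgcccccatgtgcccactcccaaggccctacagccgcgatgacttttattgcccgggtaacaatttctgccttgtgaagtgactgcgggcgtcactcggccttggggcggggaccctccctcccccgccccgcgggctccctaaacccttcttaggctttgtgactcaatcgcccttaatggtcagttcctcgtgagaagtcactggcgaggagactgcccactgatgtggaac
Atp5l: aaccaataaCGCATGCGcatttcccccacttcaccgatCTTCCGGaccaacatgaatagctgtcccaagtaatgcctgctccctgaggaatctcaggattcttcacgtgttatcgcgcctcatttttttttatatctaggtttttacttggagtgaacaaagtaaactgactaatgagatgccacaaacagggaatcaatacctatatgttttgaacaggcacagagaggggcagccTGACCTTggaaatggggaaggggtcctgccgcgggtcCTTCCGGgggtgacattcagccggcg

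The windows of Cox7a1 and Ndufa13 hold none of the 4 motifs, and that of Ndufb7 holds the ETS letters. That of Atp5l holds the nuclear receptor motif as TGACCTT, the NRF1 core and the ETS letters at 2 places. No motif of Sox2 was among the 4, so Sox2 sites were not looked for. Windows were available for 62 of the 74 members, 67 windows in all. Of these, 23.9% hold CCGGAAG and 13.4% hold CGCATGCG, compared with 8.86% and 1.87% of 32851 mouse promoter windows. AAGGTCA stands in 7.46% of member windows and 4.72% of all windows. TCAAGGTCA stands in 2.99%, the windows of Atp5g3 and Sdhd, compared with 0.423% of all windows. Neither Atp5g3 nor Sdhd was called in any comparison with GFP. A match of letters is a description of the window, not a binding site.

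Complex I takes electrons from NADH through a peripheral arm of flavin and iron-sulfur subunits. Ndufb7, an accessory subunit of its membrane arm, had the largest difference of any member with the Sox2 hairpin. Its log2 values were 8.40, 8.16, 8.16 and 8.23 on GFP arrays A to D, 8.28, 8.06, 8.10 and 8.30 with Esrrb, 7.24, 7.20, 7.34 and 7.39 with Sox2, and 7.50, 7.45, 7.61 and 7.73 with both hairpins. The Sox2 and dual arrays lay below all GFP and Esrrb arrays, and the dual arrays above all Sox2 arrays. The differences from GFP were -0.95 with Sox2 (SE 0.08, adjusted p = 2.69e-07), -0.67 with both (adjusted p = 8.73e-06) and -0.05 with Esrrb (adjusted p = 0.769). By deposited intensity the Sox2 mean was 139 ± 18.1, compared with 303 ± 18.3 for GFP (n = 4).

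Ndufs8, an iron-sulfur subunit of the peripheral arm, stood at 11.28, 11.14, 11.01 and 11.19 with GFP, 11.17, 11.03, 10.90 and 10.92 with Esrrb, 10.97, 11.00, 10.82 and 10.88 with Sox2, and 10.79, 10.63, 10.64 and 10.47 with both. All dual arrays were lower than every array of the other groups. It fell by 0.52 on the log2 scale in the dual knockdown (SE 0.08, adjusted p = 1.29e-04) and by 0.24 with Sox2 (adjusted p = 0.0319).

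Ndufa13, also known as GRIM-19, an accessory subunit needed for complex I assembly, rose in all 3 knockdowns. It read 13.11, 13.01, 12.89 and 13.06 with GFP, 13.39, 13.30, 13.35 and 13.29 with Esrrb, 13.53, 13.57, 13.57 and 13.45 with Sox2, and 13.41, 13.48, 13.41 and 13.50 with both. Every knockdown array was above every GFP array. The differences were 0.32 (adjusted p = 0.00202), 0.51 (adjusted p = 5e-06) and 0.43 (adjusted p = 2.47e-05), with an SE of 0.06 each. The dual value was below the sum of the single values by 0.40 (SE 0.08, adjusted p = 0.0169), the only interaction called among the members (1 lower, 0 higher), where 1.27% of all genes were lower and 1.61% higher; 8 members were lower and 5 higher at an unadjusted p under 0.05. The interaction did not pass with median scaling of log2 values (adjusted p = 1) or without normalization (-0.29, adjusted p = 0.0898).

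Ndufb2, a small accessory subunit with a dim probe, read 7.42, 7.43, 6.99 and 7.34 with GFP, 7.13, 7.14, 7.06 and 7.25 with Esrrb, 6.81, 7.13, 6.74 and 7.16 with Sox2, and 6.98, 6.64, 7.29 and 6.58 with both. The groups overlapped, and its dual difference of -0.43 (adjusted p = 0.0283) did not pass without dual array B (-0.35, adjusted p = 0.0857). The other 10 subunits of complex I that fell in the dual knockdown were Ndufs3 (-0.32), Ndufs4 (-0.30), Ndufa7 (-0.28), Ndufa1 (-0.27), Ndufc1 (-0.27), Ndufv2 (-0.24), Ndufv1 (-0.21), Ndufa12 (-0.20), Ndufa6 (-0.18) and Ndufb3 (-0.17). They include both the NADH-binding flavoprotein Ndufv1 and its partner Ndufv2, and Ndufs3 did not pass without dual array B (-0.19, adjusted p = 0.0946). At the other end, Ndufs6, a zinc-binding subunit, had a dual difference of 0.01, with values of 13.45 to 13.65 beside 13.47 to 13.63 for GFP. Ndufa3 was higher with Sox2 (0.24, adjusted p = 0.00426) and read 0.08 with both (adjusted p = 0.311).

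Of all genes, 21.5% were lower with Sox2 and 22.3% with both hairpins, and of 30 assembly factors outside the name rule 7 and 11 were lower. Of the 4 assembly factors that the name rule takes, 3 were lower both with Sox2 and with both hairpins. Ndufaf4 differed by -0.50 and -0.33, Ndufaf5 by -0.33 and -0.49, and Ndufaf7 by -0.29 and -0.20 (adjusted p from 8.54e-04 to 0.00565 with Sox2, and from 2.55e-04 to 0.0368 with both). With Esrrb their differences were -0.01, 0.02 and 0.15, and none was called. Ndufaf1 differed by -0.01 in the dual knockdown. Ndufaf7 did not pass without dual array B (-0.20, adjusted p = 0.0583).

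Complex II is the only one of the 5 built entirely from nuclear genes. Sdhb, its iron-sulfur subunit, had log2 values of 9.96, 9.87, 9.91 and 9.84 with GFP, 9.74, 9.71, 9.69 and 9.99 with Esrrb, 9.62, 9.73, 9.54 and 9.94 with Sox2, and 9.41, 9.45, 9.35 and 9.25 with both. The dual arrays lay below all others. Sox2 array D lay within the GFP range and Esrrb array D above it, and the other arrays of the single knockdowns lay below it. The dual difference was -0.53 (SE 0.09, adjusted p = 1.55e-04), and a second probe gave -0.66 (adjusted p over probes = 0.00168). Sdhb was also lower in the dual than in the Esrrb knockdown (-0.41, adjusted p = 0.00155) and than in the Sox2 knockdown (-0.34, adjusted p = 0.0286). Sdhc, a membrane anchor, read 11.77, 11.66, 11.57 and 11.74 with GFP, 11.56, 11.47, 11.60 and 11.62 with Esrrb, 11.71, 11.70, 11.57 and 11.59 with Sox2, and 11.51, 11.27, 11.56 and 11.36 with both. The dual arrays lay just below the GFP range and overlapped with the Esrrb arrays. Its dual difference was -0.26 (adjusted p = 0.00945). Sdhd, the other anchor, overlapped with GFP in each knockdown (dual difference -0.04, SE 0.13).

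Complex III holds a pair of large core proteins. Uqcrc1, the first of them, fell in each knockdown: 12.06, 11.99, 11.92 and 12.05 with GFP, 11.74, 11.67, 11.81 and 11.90 with Esrrb, 11.57, 11.67, 11.63 and 11.59 with Sox2, and 11.58, 11.79, 11.50 and 11.62 with both. No knockdown array reached the GFP range. The differences were -0.23 (adjusted p = 0.0455), -0.39 (adjusted p = 3.27e-04) and -0.38 (adjusted p = 3.4e-04). Uqcrc2, the second core protein, gave the smallest dual difference of the complex, 0.01 (SE 0.06), with values of 12.72 to 12.82 beside 12.70 to 12.82 for GFP.

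Uqcrb, a small subunit near the quinone site, read 10.61, 10.44, 10.65 and 10.59 with GFP, 10.44, 10.58, 10.71 and 10.42 with Esrrb, 10.74, 10.74, 10.54 and 10.86 with Sox2, and 10.36, 9.88, 10.24 and 10.32 with both. All 4 dual arrays lay below every other array, and Esrrb array D was also just below the GFP range. It differed by -0.37 from GFP (SE 0.10, adjusted p = 0.0085) and by -0.52 from the Sox2 knockdown (adjusted p = 0.00689). Without the low array B the values were -0.27 (adjusted p = 0.0239) and -0.42 (adjusted p = 0.0128).

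Other small subunits of complex III also fell in the dual knockdown. Uqcr11 read 13.07, 12.97, 13.05 and 13.04 with GFP, 13.12, 12.96, 13.07 and 13.08 with Esrrb, 12.87, 12.99, 12.85 and 13.06 with Sox2, and 12.95, 12.47, 12.99 and 12.65 with both. All groups overlapped with GFP, and its dual difference of -0.27 (adjusted p = 0.0359) did not pass without array B (-0.17, adjusted p = 0.114). Uqcr10 read 14.22, 14.15, 14.24 and 14.22 with GFP, 14.06, 13.99, 14.04 and 14.03 with Esrrb, 14.06, 14.00, 14.00 and 14.06 with Sox2, and 13.82, 14.12, 13.96 and 13.92 with both. No knockdown array of Uqcr10 reached the GFP range, and its differences were -0.18 (adjusted p = 0.0773), -0.18 (adjusted p = 0.0296) and -0.25 (adjusted p = 0.00336) in the order Esrrb, Sox2 and dual. A second, nearly as bright probe of Uqcr10 gave smaller differences of -0.07, -0.10 and -0.17 in that order. By limma its adjusted p over probes was 0.601, 0.228 and 0.0437, so with Sox2 it did not pass. Uqcrh, the hinge protein, was 0.21 higher with both hairpins (adjusted p = 0.014) and with Sox2 (adjusted p = 0.013), and its dual difference turned to -0.038 with no normalization between arrays.

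Complex IV has tissue-specific isoforms of several small subunits, and the member with its largest change was such an isoform. Cox7a1, the isoform typical of heart and skeletal muscle, fell with Esrrb and with both hairpins. Deposited intensities were 3446, 3054, 2483 and 2768 with GFP, 1429, 1468, 1645 and 1432 with Esrrb, 2615, 2665, 2414 and 2252 with Sox2, and 1615, 1341, 1620 and 1463 with both. The Esrrb and dual arrays, at about the same level, lay below every GFP and Sox2 array. The log2 differences were -0.84 with Esrrb (SE 0.10, adjusted p = 4.51e-05), -0.77 with both (adjusted p = 1.51e-05) and -0.05 with Sox2 (adjusted p = 0.717). The dual difference was -0.96 among the A and B arrays and -0.59 among the C and D arrays, which differed in level within the GFP group.

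Cox6b2, an isoform known from testis, fell with Esrrb alone. It read 10.25, 10.23, 10.13 and 10.09 with GFP, 9.65, 9.61, 9.72 and 9.85 with Esrrb, 10.18, 10.42, 10.31 and 10.07 with Sox2, and 10.02, 10.27, 10.09 and 10.14 with both. The Esrrb arrays lay below all others. The difference was -0.47 from GFP (SE 0.08, adjusted p = 0.00136), and the dual arrays were 0.42 above the Esrrb arrays (adjusted p = 8.4e-04). Its dual difference from GFP was -0.05 (adjusted p = 0.69). Both transcripts thus fell with the Esrrb hairpin, and of them Cox7a1 was called with both hairpins while Cox6b2 was not.

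Cox5a, a subunit common to all tissues, read 13.56, 13.60, 13.76 and 13.72 with GFP, 13.33, 13.26, 13.27 and 13.32 with Esrrb, 13.40, 13.33, 13.33 and 13.60 with Sox2, and 13.30, 12.60, 13.40 and 13.33 with both. Dual array B was far below the other 3. The dual difference was -0.50 (SE 0.13, adjusted p = 0.00677), and without that array -0.31 (adjusted p = 0.00339). The difference with Esrrb, -0.36, did not pass (adjusted p = 0.0992), although no Esrrb array overlapped with GFP.

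Cox7b and Cox8c, the latter a testis isoform, are dim, with mean intensities of 88 ± 16 and 116 ± 9.33 for GFP. Cox7b read 6.85, 6.63, 6.74 and 6.27 with GFP, 6.54, 6.56, 6.58 and 6.80 with Esrrb, 6.70, 6.95, 6.42 and 6.47 with Sox2, and 6.48, 6.14, 6.03 and 5.52 with both. The dual arrays overlapped with GFP and with Sox2. The dual difference was -0.58 (SE 0.18, adjusted p = 0.0134). Cox8c read 6.97, 6.94, 7.13 and 6.87 with GFP, 6.86, 6.90, 7.13 and 7.17 with Esrrb, 6.86, 6.88, 7.27 and 6.92 with Sox2, and 6.81, 5.73, 6.48 and 6.60 with both. The dual arrays lay below every other array, with a difference of -0.57 from GFP (SE 0.17, adjusted p = 0.015), or -0.34 without array B (adjusted p = 0.0263). Cox7a2 (-0.48) and Cox7c (-0.30) were the other 2 subunits lower in the dual knockdown. Cox6c, another small subunit, differed by -0.24 from GFP, but by 0.00 without array B, and was not called. Cox4i1, the common isoform of the largest nuclear subunit, had a dual difference of 0.03 (SE 0.09). Cox6a1 was higher with Sox2 (0.25, adjusted p = 0.00192) and at 0.06 with both.

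**Figure D3:**
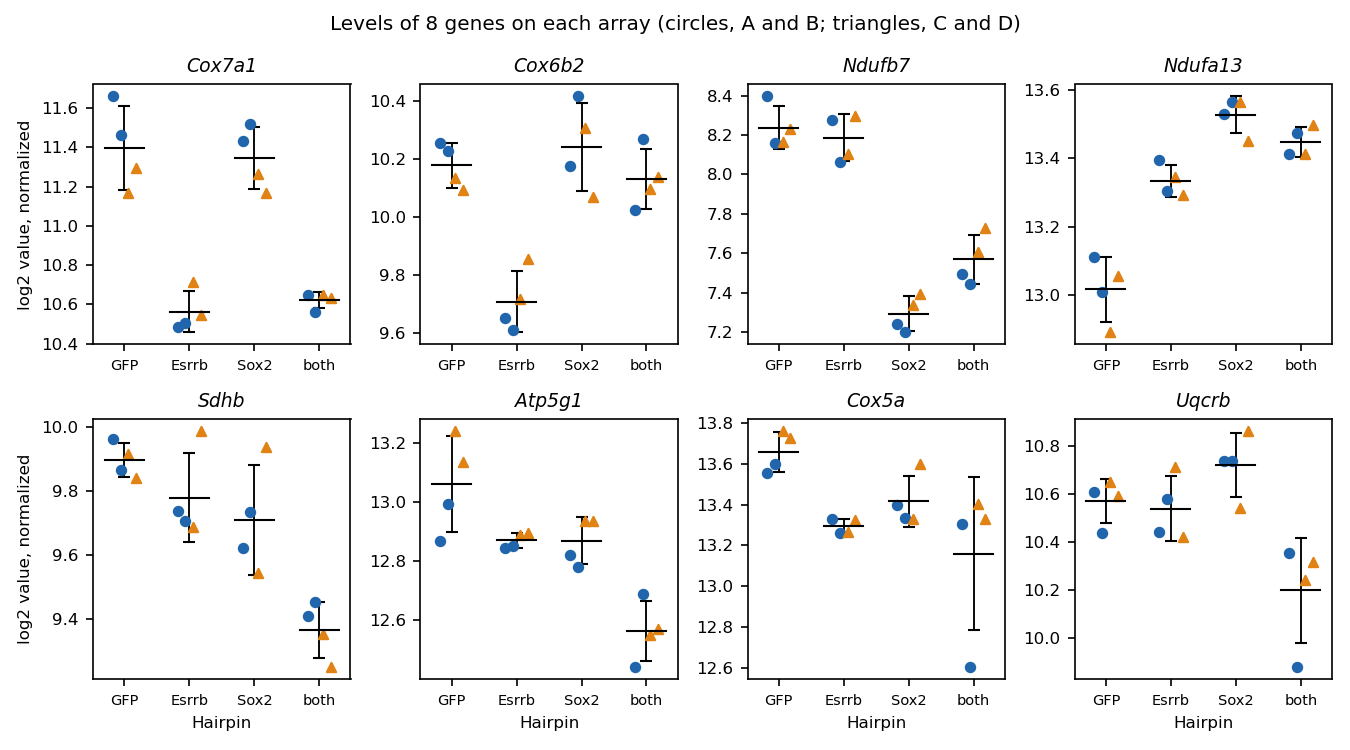
Normalized log2 value (y axis) on each array for 8 members, by hairpin group (x axis); circles are A and B arrays, triangles C and D arrays, bars the mean ± SD of 4 arrays. Cox7a1 is low with Esrrb and both hairpins, Cox6b2 with Esrrb, Ndufb7 with Sox2 and both, and Ndufa13 is high in all 3 knockdowns.

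Complex V couples a membrane rotor to a catalytic head. Atp5g1, one of 3 genes for the rotor subunit c, read 12.87, 12.99, 13.24 and 13.14 with GFP, 12.85, 12.85, 12.89 and 12.89 with Esrrb, 12.82, 12.78, 12.94 and 12.94 with Sox2, and 12.44, 12.69, 12.55 and 12.57 with both. The dual arrays lay below every other array. The dual difference was -0.50 from GFP (SE 0.08, adjusted p = 1.05e-04), -0.31 from Esrrb (adjusted p = 0.00587) and -0.30 from Sox2 (adjusted p = 0.0303). The other subunit c genes, Atp5g2 and Atp5g3, encode the same mature protein from different precursors, and differed from GFP by -0.12 and -0.19 without a call.

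Atp5j2, subunit f of the membrane part, fell in all 3 knockdowns. It read 14.03, 14.02, 14.07 and 13.99 with GFP, 13.74, 13.75, 13.64 and 13.77 with Esrrb, 13.74, 13.74, 13.74 and 13.78 with Sox2, and 13.66, 13.78, 13.63 and 13.60 with both. No knockdown array reached the GFP range, and the knockdowns overlapped one another. The differences were -0.30 (adjusted p = 0.00166), -0.28 (adjusted p = 8.11e-04) and -0.36 (adjusted p = 7.91e-05), each with an SE of 0.06. Atp5h, subunit d of the peripheral stalk, read 10.70, 10.65, 10.50 and 10.54 with GFP, 10.56, 10.41, 10.55 and 10.46 with Esrrb, 10.60, 10.70, 10.28 and 10.45 with Sox2, and 10.39, 10.43, 10.35 and 10.11 with both. Its dual arrays lay below the GFP range and overlapped with both single knockdowns, with a difference of -0.28 from GFP (adjusted p = 0.0234). The catalytic subunit beta, Atp5b, was lower with Sox2 (-0.25, adjusted p = 0.00149) and with both (-0.19, adjusted p = 0.00844), and Atp5d, subunit delta, with both (-0.20, adjusted p = 0.0472; without array B -0.12, adjusted p = 0.142).

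Atp5l, subunit g, was higher with Sox2 and with both hairpins. Its log2 values were 11.74, 11.59, 11.48 and 11.60 with GFP, 11.77, 11.74, 11.74 and 11.65 with Esrrb, 11.90, 12.00, 11.89 and 11.90 with Sox2, and 11.87, 11.99, 11.71 and 11.82 with both. The Sox2 arrays lay above the GFP range, while the lowest dual array was within it. The differences were 0.32 (adjusted p = 0.00171) and 0.24 (SE 0.07, adjusted p = 0.00997). With no normalization between arrays the dual difference was 0.06 (adjusted p = 0.514). Atp5pb, subunit b, was higher with Sox2 (0.25, adjusted p = 0.00797). Atp5mpl, a small proteolipid of the synthase, had a dual difference of 0.00 (SE 0.11). Atp5e, at an intensity of 33 with GFP, was detected on 2, 3, 4 and 2 arrays of the GFP, Esrrb, Sox2 and dual groups, and no difference was called.

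Across complexes, 21 members were called lower with both hairpins and in neither single knockdown, 10 with Sox2 and both, and 2 (Atp5j2 and Uqcrc1) in all 3. A further 33 members were called in none. These patterns were not counted over all genes, so the counts have no share to be set against. Of all genes, 5.76% were lower with Esrrb, 21.5% with Sox2 and 22.3% with both. A call in one group and not in another does not show that the groups differ, and the direct comparisons were fewer. Against the Esrrb knockdown, 19 members were lower in the dual knockdown and 1, Cox6b2, higher, beside 19.6% and 20.6% of all genes. Against the Sox2 knockdown 4 were lower, Cox7a1 (-0.72, adjusted p = 5.14e-04), Uqcrb, Sdhb and Atp5g1, and 0 were higher (1 at an unadjusted p under 0.05), beside 3.21% of all genes lower and 3.21% higher. The median over the 74 members was -0.10 against Esrrb and -0.14 against Sox2, and 63 of 74 lay below 0 in the latter. Without dual array B, 8 members passed against Sox2, 7 of them lower, where 5.73% of all genes were called and 3.16% were lower. The letters A to D as a block gave 10, beside 8.86% of all genes, and the array sets as a block gave 12, beside 9.84%. With the means of the array sets as replicates, 0 members and 0 genes passed in limma (17 members at an unadjusted p under 0.05).

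Between the single knockdowns, 11 members were lower with Esrrb than with Sox2 and 7 were higher, beside 22.1% and 21.0% of all genes. Cox7a1 (-0.78) and Cox6b2 (-0.53) were the lowest with Esrrb, and Ndufb7 (0.89), Ndufaf4 (0.48) and Ndufaf7 (0.44) the highest. The median over the members was -0.05.

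The dual shift was also read within the array sets. Among the A and B arrays the median of the 74 members was -0.20 and among the C and D arrays -0.14, with 60 and 54 members below 0. In both sets 47 members, 63.5%, lay below 0, compared with 40.8% of all genes. Pearson's r between the sets was 0.683 across the 74 members, lower than the 0.848 across all genes. Both are descriptions that include the level shared by all arrays of a group. With 2 arrays per group, 14 members were called from A and B alone, 13 of them lower, where 31.3% of all genes were called and 14.6% were lower. From C and D alone 15 were called, 14 of them lower, where 34.4% of all genes were called and 16.5% were lower.

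**Figure D4:**
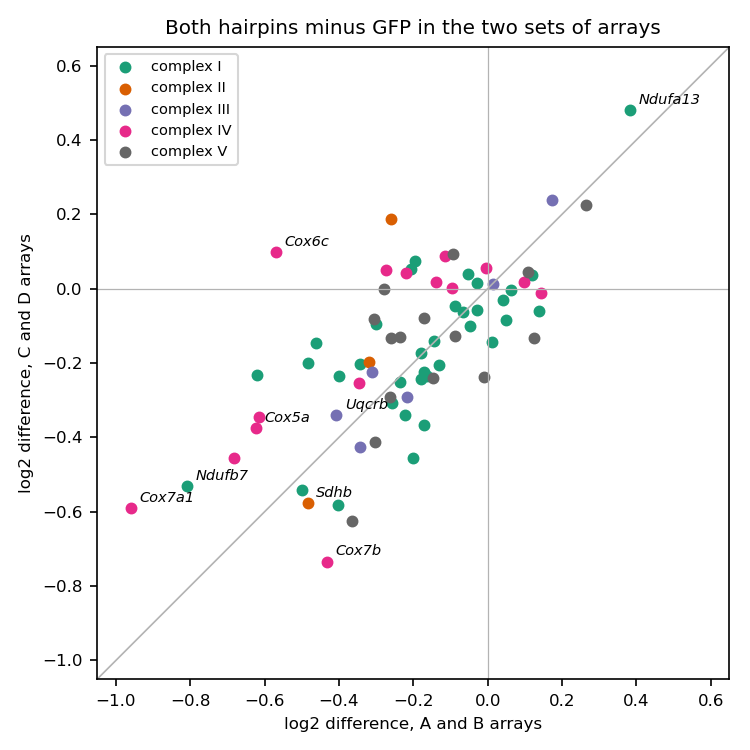
Log2 difference of the dual knockdown from GFP for each of the 74 members among the A and B arrays (x axis) and among the C and D arrays (y axis), coloured by complex. The assembly factors and Ndufs5-ps carry the colour of complex I and Cox7a2l that of complex IV, by name. The diagonal marks equal values. Most points lie in the lower left, and Cox6c, low among the A and B arrays, is at 0.10 among the C and D arrays.

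Counts for the other genes of respiration stand beside 22.3% of all genes lower and 22.1% higher in the dual knockdown. Of 30 further assembly factors measured, 11 were lower and 1 higher, with a median of -0.09. Ecsit, a complex I assembly factor, differed by -0.90 (SE 0.09, adjusted p = 1.33e-06), Tmem126b, another, by -0.51 and the complex IV factor Coa6 by -0.44. Of 12 genes of mitochondrial DNA maintenance and transcription, 6 were lower and 0 higher (median -0.25), among them the elongation factor Tefm (-0.72, adjusted p = 4.44e-06), the single-strand binding protein Ssbp1 (-0.53) and the transcription factor Tfb2m (-0.44). Tefm was also lower with Sox2 alone (-0.82, adjusted p = 1.24e-06), and read -0.09 with Esrrb (adjusted p = 0.581).

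Of 12 genes of the tricarboxylic acid cycle, 3 were lower and 1 higher with both hairpins (median -0.11). The lower share, 25%, was near the 22.3% of all genes, of which 22.1% were higher. Idh3a (-0.33) and Idh2 (-0.31), which encode isocitrate dehydrogenases, fell, and Dlst, a subunit of the oxoglutarate dehydrogenase complex, rose by 0.34. Of 7 coenzyme Q synthesis genes 3 were lower and 1 higher, with Coq7 at -0.50, Coq6 at -0.31 and Coq8b at 0.77. The adenine nucleotide carrier Slc25a5 fell by 0.56 on the log2 scale, and of 11 genes of cristae and protein import 4 were lower, among them Timm17b (-0.51), Hspe1 (-0.37) and Timm50 (-0.32). Cytochrome c1, encoded by Cyc1, differed by -0.28 (adjusted p = 0.02). Of 6 measured regulators of nuclear respiratory genes only Esrrb itself was called against GFP, with dual differences of -0.07 for Esrra, 0.17 for Nrf1 and -0.32 for Gabpa (adjusted p = 0.411, 0.0913 and 0.132).

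Paralogues of a subunit were compared by the difference between them on each array, over 27 comparisons of a pair and a knockdown with GFP by a two-sided exact permutation test, whose smallest possible p with 4 against 4 arrays is 0.0286. None passed after Benjamini-Hochberg adjustment (lowest 0.0771). Comparisons at the smallest possible p were themselves adjusted to 0.0771, so a pass needed more of the 27 at that minimum. The adjusted test therefore cannot decide whether single pairs moved apart. Cox7a1 moved by -0.42 relative to Cox7a2 with Esrrb (exact p = 0.114), and by -0.85 relative to Cox7a2l (exact p = 0.0286, adjusted 0.0771). Cox6b1 moved by 0.49 relative to Cox6b2 with Esrrb (exact p = 0.0286, adjusted 0.0771).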

How the data were processed

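RNA from 4 hairpin groups was measured on 16 Illumina arrays. Per the file headers the deposited intensity values are linear and not normalized. Each has a deposited detection p-value, which the values show to be 1 minus p. The authors also deposited a processed ratio for each probe in each group, made in a way not given in the sources used. Log2 differences of these authors' ratios served as an alternative for single genes. Background was estimated from the detection values, arrays were quantile normalized and log2 taken with an offset of 16, in limma 3.58.1 (R 4.3.3). Of 25697 probes, 11591 had a score above 0.99 on all 4 arrays of at least 1 group, and the brightest stood for each of 8248 genes. All arrays entered 1 model of group means (lmFit, eBayes), with 7 contrasts and Benjamini-Hochberg adjustment over all genes. The fit was tested on simulated data. The number of arrays limits precision.

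Members, lists and tests were chosen with earlier results of these data known. Within each complex, values on every array were given for the 4 members with the largest absolute dual difference among those called, the least changed member was given too, and Cox6b2 was added after its values were seen. Of each other list up to 3 called genes were named. Array letters were compared between groups: deviations from group means correlated at 0.144 to 0.446 for the same letter, 0.223 to 0.451 for the other letter of the same set (A and B, or C and D), and -0.451 to -0.140 across sets. The medians were 0.323 for the same letter and 0.334 for the other letter of the set. The check thus showed the sets, but no pairing by letter within them. Both the letters and the sets were tried as a block. No 2 arrays held identical signals. Alternatives covered background, scaling, offset, filter, probe choice, blocks, array weights and leaving out each array. Protein sequences were not used here.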

Additional observations from a re-analysis of the deposited data

Results flagged for a closer look

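Of 92 sets of 4 arrays examined for the named members, 8 held an array whose gap to its nearest neighbour exceeded Dixon's critical value as a share of the range. Chance flags about 1 in 20 such sets. Dual array B was low for Cox5a, at a log2 value of 12.60 (next 13.30), and for Cox7a1, at 10.56 (next 10.63). Esrrb array D was high for Sdhb, at 9.99 (next 9.74), and for Cox7b, at 6.80 (next 6.58), and low for Uqcrc2, at 12.79 (next 12.85). The others were GFP array B for Uqcr10, at 14.15 (next 14.22), Sox2 array C for Cox8c, at 7.27 (next 6.92), and Sox2 array B for Atp5l, at 12.00 (next 11.90). For Ndufa13 the dual difference was below the sum of the single differences (interaction -0.40 on the log2 scale, limma, adjusted p = 0.0169), and all 12 knockdown arrays were above all GFP arrays.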

How the results depend on the processing

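Counts of called members are given in the order Esrrb, Sox2 and dual against GFP, dual against Esrrb, dual against Sox2, Esrrb against Sox2, and interaction, and were 5, 18, 37, 20, 4, 18 and 1. Median scaling, planned as an alternative to quantiles, was first run as limma's scale method, which multiplies the log2 values of each array (factors 0.949 to 1.04) and raised the median SD between arrays of a group from 0.145 to 0.346. With it 0.691%, 7.88% and 8.98% of all genes were called in the first 3 comparisons. It gave 0, 1, 0, 0, 0, 1 and 0 calls among the members (1, 2, 4, 4, 3, 4 and 1 at an unadjusted p under 0.05). After these counts had been seen, subtraction of each array's median was added, with an SD of 0.145, and gave 7, 16, 41, 23, 7, 15 and 1; both are reported because the second was chosen knowing the first. With no normalization the counts were 12, 31, 53, 24, 2, 15 and 2, 52 of the 53 lower, the medians of all genes moved to -0.10, -0.14 and -0.14 in the first 3 comparisons, and Uqcrh turned to -0.038 in the dual knockdown.

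The A and B arrays alone gave 2, 5, 14, 6, 1, 7 and 0 calls, the C and D arrays alone 2, 8, 15, 9, 1, 8 and 0, and the means of these sets as replicates 1, 9, 19, 13, 0, 9 and 0; fewer arrays entered each. The replicate block by letters gave 5, 19, 38, 20, 10, 18 and 1. This block moved the dual count against Sox2 from 4 to 10 and every other count by at most 1. The array set as a block gave 12 for dual against Sox2 and 2 for the interaction. For dual against Sox2, offset 50 gave 7, detection on all 16 arrays 11, no filter 2 and array weights 11; weights gave 9 for Esrrb. Leaving out each array gave 4 to 8, 13 to 22, 26 to 36, 15 to 20, 2 to 8, 13 to 22 and 1 to 1. The lowest dual count came without dual array D, and against Sox2 the count of 8 came without dual array B, and that of 2 without dual array C, dual array D or Sox2 array D. Apart from limma's scale method, 31 other settings were read. In those that included the gene, calls held for Cox7a1 in the Esrrb knockdown and for Ndufa13, Ndufaf4, Ndufb7 and Uqcrc1 in the Sox2 knockdown. They also held for 10 members in the dual knockdown (Atp5g1, Atp5j2, Cox5a, Cox7a1, Ndufa13, Ndufaf5, Ndufb7, Ndufs8, Sdhb and Uqcrc1). The authors' ratios, counted among the 31, have no p-value, so only the sign was compared there. A reading of the subunits alone, also among the 31, used the main fit and could not change a call. That setting left out Ndufaf4 and Ndufaf5. Why the other calls changed was not tested.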

Other observations

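The motif letters were also counted in the 32 promoter windows of 30 members that were lower in the dual knockdown. Of these, 18.8% held CCGGAAG and 12.5% held CGCATGCG, compared with 23.9% and 13.4% of all member windows, and 0 held TCAAGGTCA. Of the 5 windows of the members called in the Esrrb knockdown, 0 held AAGGTCA. These shares are descriptions of few windows and were not tested.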
